A study of Mus musculus with 24 samples.

Results

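The enzymes and regulators that break down the branched-chain amino acids leucine, isoleucine and valine were followed in fat and muscle of an obese and a lean mouse strain. The 10 genes were Bcat1, Bcat2, Bckdha, Bckdhb, Dbt, Bckdk, Ppm1k, Ivd, Acadsb and Hibch. They were found by name: every gene probe whose gene name on the array equals one of these symbols was taken, with no use of its signal. That gave 10 of 34947 gene names and 14 of 55681 probes. Of the members, 7 had 1 probe, 2 had 2 probes and 1 had 3 probes. On all 23 arrays used, 11 of the 14 probes were well above background by the scanner's own flag, and every member had at least 1 such probe.

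The arrays compared NZO mice, labelled NZO/HiBomDife, with B6 mice, labelled C57BL/6. NZO, the New Zealand Obese mouse, is an inbred line that becomes obese and prone to diabetes, and B6 is a standard inbred laboratory line. Both strains gave 3 tissues, which makes 6 groups of 4 arrays: white fat of the gonadal depot (gWAT), brown fat (BAT) and skeletal muscle, titled quad. The order used throughout is NZO and then B6 gWAT, NZO and then B6 BAT, and NZO and then B6 muscle. Mice of all 6 groups were males aged 6 weeks, described as parental animals, on a high-fat diet labelled as 45% fat. No group carried an added allele or agent, so strain was the only labelled difference within a tissue. The labels do not say whether the 4 samples of a group came from separate animals, so the p-values measure the spread between these samples.

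Total RNA was labelled with Cy3 and put on single-colour Agilent arrays with probes of 60 bases. Each value below is the log2 of the background-corrected spot signal minus the log2 of that array's 75th percentile, so 0 is the 75th percentile and a step of 1 is a doubling. Probes differ in how brightly they shine, so values were compared between samples and never between genes. One of the B6 muscle arrays, replicate 011, was left out of every comparison. Its 8 adipocyte markers summed to 1285 times the 75th percentile, against 209 to 263 on the other B6 muscle arrays. The labelled tissues otherwise carried their defining markers. The muscle-fibre markers summed to 10043 to 13028 in muscle, and the brown-fat markers to 4021 to 5024 in BAT.

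Branched-chain amino acids enter cells through transporters and are first converted to branched-chain keto acids by a transaminase. Bcat1 encodes the cytosolic transaminase and Bcat2 the mitochondrial one, which is the main form in fat and muscle. The keto acids are then committed to oxidation by the branched-chain keto acid dehydrogenase complex in the mitochondrion. Bckdha and Bckdhb encode the alpha and beta subunits of its decarboxylase (E1), and Dbt encodes the acyltransferase core (E2). A kinase, Bckdk, switches the complex off by phosphorylating the alpha subunit, and a phosphatase, Ppm1k, switches it on again. After the complex the routes separate. Ivd oxidises the leucine product, Acadsb acts mainly on the isoleucine product, and Hibch acts in the valine route. Adipose tissue is known as a site where this pathway is active and where it is often reduced in obesity.

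The choice of probe decided the result for Ppm1k, so its probes are shown first. One Ppm1k probe, at chr6:57456890-57456949 on the minus strand of mm9, lists Ppm1k alone. The other, at chr6:57458598-57458657 on the same strand, lists Golm2, Ppm1k and Synrg in the files. That probe averaged 9.45, at percentile 99.97 of all probes by mean level. It shares a run of 15 or more bases with 27 other probes of 25 other gene names on the array, and the probe that lists Ppm1k alone shares such a run with 0. The Bckdhb probe shares such a run with 1 probe of another gene name. A Bcat1 probe that does not stand for its gene shares one with 8 probes of 8 other gene names. The first 30 bases of the 3-gene probe, the matching stretch of the probes for Medag, Pirb and Pbld1, and the first 30 bases of the 1-gene probe are given below. Capitals mark the longest unbroken run within the stretch that is shared with the 3-gene Ppm1k probe.
Ppm1k, 3-gene probe: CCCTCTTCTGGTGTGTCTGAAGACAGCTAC
Medag: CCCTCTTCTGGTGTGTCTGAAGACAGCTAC
Pirb: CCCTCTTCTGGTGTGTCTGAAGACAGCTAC
Pbld1: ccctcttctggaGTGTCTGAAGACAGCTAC
Ppm1k, 1-gene probe: ttcattatgagaatggcttaagcaggaata
The Medag and Pirb probes carry all 30 letters. The Pbld1 stretch begins with the same letters, and after a mismatch its last 18 are shared. Over the whole Pbld1 probe the longest shared run is 24 bases. The genes Medag, Pirb and Pbld1 lie on chromosomes 5, 7 and 10. Which transcripts feed the 3-gene probe was not tested. The rule of taking a gene's brightest probe picks it for Ppm1k, so both probes are reported, and the 1-gene probe was chosen for this after its values were seen.

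In gonadal fat, NZO mice had less RNA than B6 for the mitochondrial transaminase, the E2 core and all 3 enzymes after the complex. They had more for the E1 beta subunit. Fewer of these calls held with another centring of the arrays, given below. Of the 10 members, 5 were lower and 1 was higher in NZO at an adjusted p under 0.05 by limma. Over all 21598 genes tested there, 15.6% were called lower and 15.9% higher, 31.6% in all. The groups of arrays did not overlap for 6 of the 10 members, against 35.9% of all genes. The median member difference was -0.54, and that of all genes was -0.0046. The probe that lists Ppm1k alone was a further call, 2.17-fold lower in NZO, where 31.7% of genes were called with probes listing several genes left out. In brown fat 3 of 10 members were called, 2 lower and 1 higher in NZO, where 15.7% of all genes were called, 8.09% lower and 7.57% higher, and 4 members did not overlap, against 22.1% of all genes. In muscle 0 of 10 members passed limma's adjusted threshold, which 10.7% of all genes passed, 6.02% lower and 4.69% higher in NZO. There 5 members had an unadjusted p under 0.05, and 5 did not overlap, against 27.6% of all genes. The 1-gene Ppm1k probe was called in muscle, where 10.6% of genes were with several-gene probes left out.

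**Figure D1:**
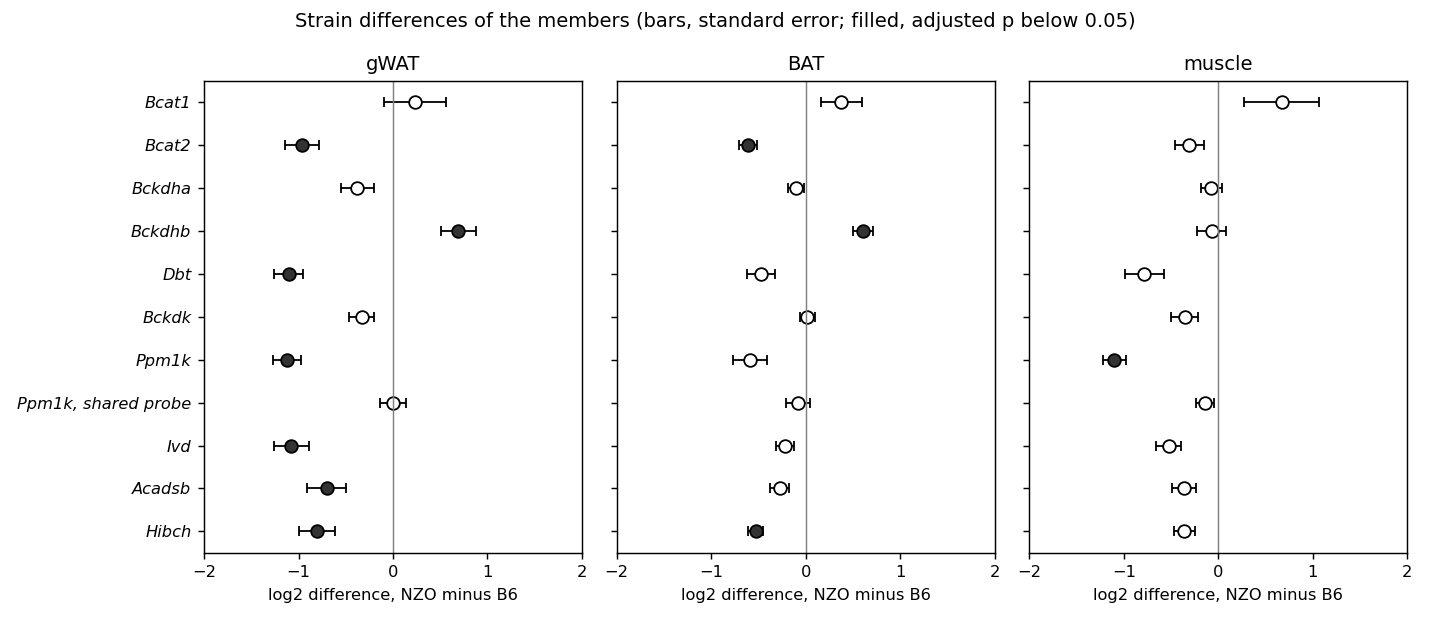
Differences between NZO and B6 for each gene and tissue, as log2 of NZO minus B6 on the horizontal axis, with bars of 1 standard error and filled points at a limma adjusted p under 0.05. Bckdhb alone lies to the right of 0 with filled points, in gWAT at 0.69 and in BAT at 0.61, and the 1-gene and 3-gene (shared) Ppm1k probes lie apart in gWAT at -1.12 and -0.00.

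The mitochondrial transaminase Bcat2 (probe at chr7:52844940-52844999, plus strand) was lower in NZO in both fat depots. It stood at 2.90, 2.56, 2.42 and 3.21 in NZO gWAT, against 3.71, 3.93, 3.68 and 3.62 in B6 gWAT. All 4 NZO arrays lay below all 4 B6 arrays. The means were 2.77 ± 0.354 in NZO and 3.73 ± 0.136 in B6 (SD, n = 4 each), a 1.95-fold lower level (log2 difference -0.96 ± 0.18 SE, adjusted p = 0.00505). In BAT its values were 2.07, 1.99, 2.19 and 1.84 in NZO and 2.73, 2.64, 2.58 and 2.61 in B6, again without overlap, which was 1.53-fold lower in NZO (log2 difference -0.61 ± 0.097 SE, adjusted p = 0.00405). In muscle the 1.67, 1.96, 1.39 and 1.58 of NZO overlapped the 2.09, 1.86 and 1.91 of B6, and the difference of -0.31 was not called (adjusted p = 0.249).

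Bcat1, the cytosolic transaminase, varied more between arrays than it did between strains on the probe that stands for it. The probe used (chr6:144942376-144942435, minus strand) stood at -1.62, -1.64, -1.01 and -1.22 in NZO gWAT and at -1.71, -1.49, -0.79 and -2.44 in B6 gWAT, with a log2 difference of 0.23 ± 0.33 SE (adjusted p = 0.62). In BAT it stood at -2.88, -2.50, -3.55 and -2.78 in NZO and at -3.13, -3.15, -3.49 and -3.46 in B6, and in muscle at -1.97, -1.74, -1.70 and -0.90 in NZO and at -2.23, -1.49 and -3.04 in B6. Its groups overlapped in all 3 tissues, and its differences of 0.38 in BAT and 0.67 in muscle were not called (adjusted p = 0.307 and 0.333). Another Bcat1 probe gave a different reading. It stood at -3.78, -3.24, -3.33 and -2.78 in NZO and at -4.55, -4.82, -4.15 and -5.33 in B6, where it was not well above background on any array. Set against the lowest signal well above background, that is at least 2.07-fold higher in NZO BAT. The limma adjusted p of 0.0112, with every probe tested separately, comes from the measured values and does not test that bound. The probe passed the filter on dim probes in BAT through the NZO arrays alone. In muscle this probe stood at -2.74, -2.02, -2.83 and -2.49 in NZO, above the -4.34, -3.33 and -5.58 of B6, where 1 of 3 arrays was well above background, and the difference of 1.90 ± 0.50 SE was not called (adjusted p = 0.054). Such bounds use the higher of each array's dimmest clearly detected signal and the probe's own signal. The remaining Bcat1 probe stood between -3.46 and -2.45 in NZO muscle. In B6 muscle it stood between -5.12 and -3.59, where 2 of 3 arrays were well above background. Its strains overlapped in gWAT, at means of -1.58 in NZO and -2.25 in B6, and in BAT. These values are given without a test.

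**Figure D2:**
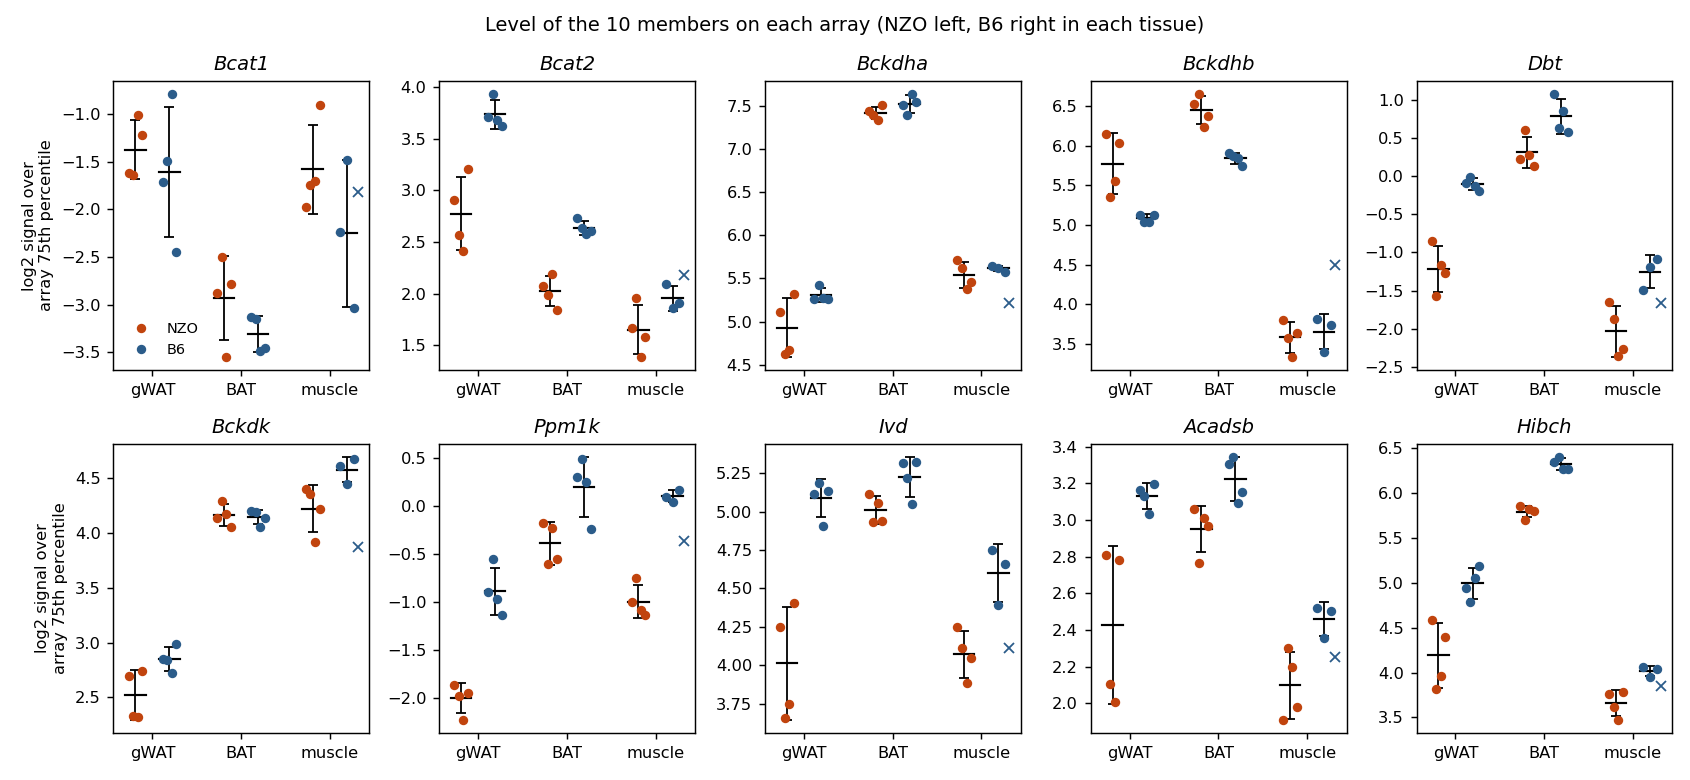
Level of each gene on every array, as log2 signal over the array's 75th percentile on the vertical axis, with NZO left of B6 in gWAT, BAT and muscle. Bars are means, whiskers are SD, and the cross is the B6 muscle array left out. Ppm1k is its 1-gene probe. Bckdhb is higher in NZO than in B6 in both fats, while Dbt, Ivd, Hibch and Bcat2 are lower in NZO gWAT without overlap.

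Within the dehydrogenase complex the subunits differed in direction. The E2 core Dbt (chr3:116252015-116252074, plus strand) stood at -0.85, -1.57, -1.16 and -1.27 in NZO gWAT, against -0.09, -0.01, -0.14 and -0.20 in B6 gWAT. The groups were well apart, and the level was 2.15-fold lower in NZO (log2 difference -1.11 ± 0.16 SE, adjusted p = 0.00117). In BAT the values were 0.22, 0.61, 0.27 and 0.14 in NZO and 1.07, 0.63, 0.85 and 0.58 in B6, overlapping by 1 array from each side, with a difference of -0.47 that was not called (adjusted p = 0.0714). In muscle -1.64, -1.87, -2.36 and -2.26 in NZO lay below -1.49, -1.18 and -1.08 in B6, and the difference of -0.78 ± 0.21 SE narrowly missed the threshold (adjusted p = 0.0552).

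The E1 beta subunit Bckdhb (chr9:84017787-84017846, plus strand) went the other way. It stood at 6.15, 5.35, 5.55 and 6.04 in NZO gWAT, against 5.13, 5.04, 5.04 and 5.13 in B6 gWAT, which was 1.62-fold higher in NZO (log2 difference 0.69 ± 0.18 SE, adjusted p = 0.0226). In BAT the values of 6.52, 6.65, 6.24 and 6.38 in NZO lay above the 5.91, 5.87, 5.85 and 5.74 of B6, a 1.52-fold higher level (log2 difference 0.61 ± 0.11 SE, adjusted p = 0.00674). In both fats the lowest NZO array exceeded the highest B6 array. The muscle values of 3.80, 3.57, 3.33 and 3.63 in NZO and 3.82, 3.40 and 3.74 in B6 overlapped, with a difference of -0.07 (adjusted p = 0.814). The gWAT call for Bckdhb was lost in 5 of the 8 fits that left out 1 array, with differences between 0.57 and 0.83, and its BAT call in 0 of 8.

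The E1 alpha subunit Bckdha (chr7:26415094-26415153, minus strand) was not called between strains in any tissue. It stood at 5.11, 4.62, 4.67 and 5.32 in NZO gWAT and at 5.26, 5.42, 5.28 and 5.26 in B6 gWAT, where 2 of the NZO arrays lay below the rest. Its log2 differences were -0.38 ± 0.17 SE in gWAT, -0.10 ± 0.086 in BAT and -0.07 ± 0.11 in muscle (adjusted p = 0.126, 0.491 and 0.72). Taken within each array, the Bckdhb signal relative to the Bckdha signal was higher in NZO by 1.07 in gWAT and 0.71 in BAT on the log2 scale, without overlap between strains in either. In muscle that difference was 0.0047 and the strains overlapped. Bckdhb relative to Dbt was higher in NZO by 1.80 in gWAT, 1.08 in BAT and 0.71 in muscle, without overlap in any of the 3. These relations between probes were not tested, and they show unequal change and not the amounts of the subunits.

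The phosphatase and the kinase of the complex are described next, and only the phosphatase was called between strains, on its 1-gene probe. With that probe, Ppm1k stood at -1.86, -1.98, -2.23 and -1.95 in NZO gWAT, against -0.89, -0.55, -0.97 and -1.13 in B6 gWAT. The gap between the groups was larger than the spread in either, a 2.17-fold lower level in NZO (log2 difference -1.12 ± 0.15 SE, adjusted p = 0.000861). In muscle the values of -1.004, -0.75, -1.08 and -1.14 in NZO lay below 0.10, 0.04 and 0.17 in B6, which was 2.14-fold lower (log2 difference -1.10 ± 0.12 SE, adjusted p = 0.00207). In BAT it stood at -0.17, -0.60, -0.22 and -0.55 in NZO and at 0.30, 0.49, 0.25 and -0.24 in B6, overlapping by 1 B6 array, and the difference of -0.59 was not called (adjusted p = 0.0616). Without that B6 array, replicate 009, the BAT difference was -0.74 and passed (adjusted p = 0.0203). The 3-gene probe gave -0.00 in gWAT, -0.08 in BAT and -0.14 in muscle and was called in none (adjusted p = 0.998, 0.723 and 0.405).

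The kinase Bckdk (chr7:135051800-135051859, plus strand) was not called between strains. It stood at 2.69, 2.33, 2.32 and 2.74 in NZO gWAT and at 2.85, 2.84, 2.72 and 2.99 in B6 gWAT, a difference of -0.33 ± 0.13 SE (adjusted p = 0.0946). In BAT the difference was 0.02 ± 0.084 SE (adjusted p = 0.91). In muscle 4.40, 4.36, 3.92 and 4.22 in NZO lay just below 4.61, 4.45 and 4.68 in B6, with a difference of -0.36 that was not called (adjusted p = 0.165). Within each array, the kinase signal relative to the 1-gene Ppm1k signal was higher in NZO by 0.79 in gWAT and 0.74 in muscle, without overlap. In BAT it was higher by 0.61 and the strains overlapped. This relation was not tested either.

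**Figure D3:**
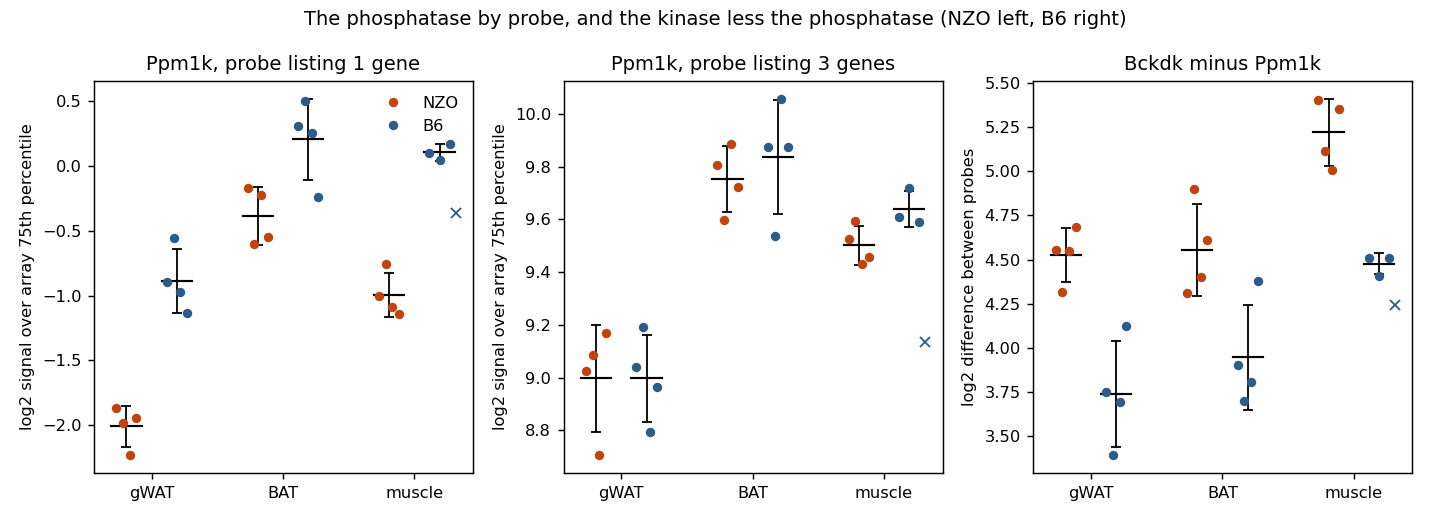
The 1-gene Ppm1k probe, the 3-gene Ppm1k probe and the Bckdk signal minus the 1-gene Ppm1k signal on every array, in log2 units on the vertical axis, with NZO left of B6 in each tissue, and bars for means with SD. NZO lies below B6 on the 1-gene probe in gWAT and muscle, the 3-gene probe stays between 8.71 and 10.06, and in the last panel only the shift between strains can be read, since its height depends on both probes.

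The 3 enzymes after the complex were all lower in NZO gWAT. Ivd, on the leucine route (chr2:118706998-118707057, plus strand), stood at 4.25, 3.65, 3.75 and 4.40 in NZO gWAT, against 5.12, 5.19, 4.91 and 5.14 in B6 gWAT. The strains did not overlap, and the level was 2.11-fold lower in NZO (log2 difference -1.08 ± 0.18 SE, adjusted p = 0.00325). In BAT its values of 5.12, 4.93, 5.06 and 4.94 in NZO overlapped the 5.32, 5.22, 5.05 and 5.33 of B6 (difference -0.22, adjusted p = 0.181). In muscle 4.25, 4.11, 3.88 and 4.05 in NZO lay below 4.75, 4.39 and 4.66 in B6, and the difference of -0.53 ± 0.14 SE narrowly missed the threshold (adjusted p = 0.0523).

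Hibch, on the valine route (chr1:52977535-52977594, plus strand), was called in both fats. It stood at 4.59, 3.82, 3.97 and 4.39 in NZO gWAT, against 4.94, 4.79, 5.05 and 5.19 in B6 gWAT, 1.74-fold lower in NZO (log2 difference -0.80 ± 0.19 SE, adjusted p = 0.0138). In BAT, 5.85, 5.71, 5.82 and 5.80 in NZO lay below 6.35, 6.40, 6.27 and 6.26 in B6, 1.44-fold lower in NZO (log2 difference -0.53 ± 0.078 SE, adjusted p = 0.00299). The spread within each BAT group was small beside that gap. In muscle, 3.76, 3.62, 3.47 and 3.79 in NZO lay below 4.06, 3.95 and 4.04 in B6 (difference -0.36, adjusted p = 0.0881).

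Acadsb, on the isoleucine route (chr7:138588828-138588887, plus strand), was called in gWAT alone. It stood at 2.81, 2.11, 2.01 and 2.78 in NZO gWAT, against 3.16, 3.13, 3.03 and 3.20 in B6 gWAT, 1.63-fold lower in NZO (log2 difference -0.70 ± 0.20 SE, adjusted p = 0.0305). The NZO arrays formed a high and a low pair, both below B6. A second probe has the Acadsb name in the files but lists no RefSeq gene. It was lower in NZO gWAT by -1.42 ± 0.41 SE (adjusted p = 0.0316 with every probe tested separately). There it passed the filter on dim probes through B6 alone, since 3 of 4 NZO arrays were well above background. Its BAT difference of 0.19 was not called (adjusted p = 0.776). In muscle it averaged -3.71 in NZO and -3.90 in B6, passed the filter in neither and was not tested. The call of the first probe was lost in 6 of 8 fits that left out 1 array, with differences between -0.83 and -0.56. In BAT, 3.06, 2.77, 3.01 and 2.97 in NZO lay below 3.31, 3.34, 3.09 and 3.15 in B6 (difference -0.27, adjusted p = 0.116). In muscle, 1.91, 2.30, 2.20 and 1.98 in NZO lay below 2.52, 2.36 and 2.50 in B6 (difference -0.36, adjusted p = 0.121).

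Hibch and the brighter Acadsb probe had every NZO array below every B6 array in all 3 tissues. The same held for 2.82% of the 18934 genes tested in each tissue. With Ppm1k read from its 1-gene probe, 7 members had a lower NZO mean in every tissue, against 19.6% of those genes. The 7 were Bcat2, Bckdha, Dbt, Ppm1k, Ivd, Acadsb and Hibch. Acadsb is read from its brighter probe in both counts, and its second probe had a higher NZO mean in BAT and muscle. These counts use the direction of the means or the arrays' order and no test.

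Centring each array on its median instead of its 75th percentile moved the gWAT strain difference of all genes by 0.28, so gWAT differences are relative to that choice. Genes called there were 3440 higher and 3380 lower in NZO on the scale used here, and 4595 higher and 1529 lower on the median scale. On the median scale Dbt (-0.82, adjusted p = 0.0293), Ivd (-0.79, adjusted p = 0.0429) and Bckdhb (0.98, adjusted p = 0.022) were called. Bcat2 (-0.68, adjusted p = 0.0578), Hibch (-0.52, adjusted p = 0.171) and Acadsb (-0.42, adjusted p = 0.265) were not. In BAT the median scale left Bckdhb called (0.65, adjusted p = 0.0191), with Hibch at -0.48 (adjusted p = 0.0592) and Bcat2 at -0.57 (adjusted p = 0.0608).

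Arrays shared 6 slides, each with its own scan time. Within the 2 slides that held gWAT of both strains, all 6 called members had the direction of the whole comparison. In the 1 slide that held BAT of both strains, all 3 did. The strains did not overlap for any of these members, so their direction within a slide was fixed in advance. It therefore cannot tell whether slides matter. With slide as a fixed block all 6 gWAT calls remained. In BAT Bckdhb remained (0.72, adjusted p = 0.0089), while Bcat2 (-0.57, adjusted p = 0.104) and Hibch (-0.40, adjusted p = 0.16) did not.

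Markers of other cell types moved with strain in both fats. In gWAT 8 of 8 macrophage markers were higher in NZO, summing to 185 to 221 times the 75th percentile in NZO and 63.4 to 80.9 in B6, and Gpnmb (5.03), Trem2 (4.41) and Itgax (2.85) had the largest log2 differences. The brown-fat markers were higher for 6 of 8, with sums of 92.0 to 161 in NZO and 17.2 to 31.3 in B6. Ucp1, the uncoupling protein of brown fat, was higher there by 7.79 and was well above background on 4 of 4 NZO and 3 of 4 B6 arrays. Of 8 general adipocyte markers, 2 were higher, 3 lower and 3 not called in NZO, with sums of 2094 to 3157 in NZO and 2533 to 3176 in B6. In bulk tissue, fewer cells of a type and less RNA per cell cannot be told apart. In BAT 10 of 10 muscle-fibre markers were lower in NZO, with sums of 2.07 to 8.66 in NZO and 225 to 924 in B6, and 1 of the 10 was not well above background on any NZO BAT array. In muscle 0 of 10 muscle-fibre markers were called. Of the hepatocyte, lymphocyte and endothelial lists, at most 2 genes of each list were called in any tissue. The part of these markers in the members' differences was not tested.

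The strain difference itself was compared between tissues in 1 fit of all 23 arrays. For Ivd it was less negative in BAT than in gWAT, by 0.86 ± 0.20 SE (adjusted p = 0.00574). This was 1 of 10 members, where 19.2% of all genes passed, and it was not called with arrays centred on the median (0.62, adjusted p = 0.17). For muscle against gWAT 2 of 10 members passed, where 20.6% of all genes did. For Bcat2 the strain difference was less negative in muscle than in gWAT, by 0.66 ± 0.22 SE (adjusted p = 0.0371). For Bckdhb it was lower in muscle than in gWAT, by -0.76 ± 0.22 SE (adjusted p = 0.0219). The Bcat2 result was lost in 8 of the 15 fits that left out 1 array and with median centring (0.34, adjusted p = 0.413), and the Bckdhb result in 2 of 15. Between muscle and BAT 0 of 10 members passed by limma, where 6.16% of all genes did, and 2 had an unadjusted p under 0.05. The strain difference of the 1-gene Ppm1k probe was not called as different between tissues, at 0.02 ± 0.23 SE for muscle against gWAT (adjusted p = 0.967) and 0.53 ± 0.22 SE for BAT against gWAT (adjusted p = 0.0964).

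The levels of the members also differed between tissues. BAT against gWAT was called for 10 of 10 members in NZO, 8 higher and 2 lower in BAT, where 66.9% of all genes were called, 40.2% higher and 26.7% lower. In B6 it was called for 8 of 10, 6 higher and 2 lower, where 60.2% of all genes were, 35.3% higher and 25.0% lower. The E1 alpha subunit had the widest gap. Bckdha stood between 7.34 and 7.51 in NZO BAT, against 4.62 to 5.32 in NZO gWAT, a log2 difference of 2.49 ± 0.13 SE, and the difference in B6 was 2.21 ± 0.13. The difference was 1.65 in NZO and 1.30 in B6 for Bckdk, 1.60 and 1.33 for Hibch, 1.52 and 0.89 for Dbt, and 0.67 and 0.76 for Bckdhb. On the median scale the Bckdhb difference was not called in NZO (0.17, adjusted p = 0.512) or B6 (0.50, adjusted p = 0.0616). The 1-gene Ppm1k probe was higher in BAT by 1.62 in NZO and by 1.09 in B6.

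Both transaminases ran opposite to the complex between the fats. Bcat2 was lower in BAT than in gWAT by -0.75 ± 0.15 SE in NZO and -1.10 ± 0.15 in B6, and Bcat1 by -1.55 ± 0.34 and -1.70 ± 0.34. Ivd and Acadsb were higher in BAT than in gWAT in NZO, by 1.00 and 0.52 (adjusted p = 5.14e-06 and 0.0053), although on the median scale Acadsb was at 0.025 (adjusted p = 0.926). In B6 their differences were 0.14 and 0.09 and were not called (adjusted p = 0.406 and 0.618). For Ivd that gap between strains is the tested difference above, and for Acadsb it did not pass (0.43, adjusted p = 0.174).

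Muscle had less RNA for most of the catabolic enzymes than brown fat in both strains. Against BAT, 8 of 10 members were called in NZO, 7 lower and 1 higher in muscle, where 64.2% of all genes were called, 36.6% lower and 27.7% higher. In B6 9 of 10 were, 7 lower and 2 higher, where 62.4% of all genes were, 33.7% lower and 28.8% higher. Bckdhb was lower in muscle by -2.87 ± 0.15 SE in NZO and -2.19 ± 0.16 in B6, Dbt by -2.34 and -2.03, Hibch by -2.13 and -2.30, and Bckdha by -1.88 and -1.90. Bcat1 was the member that was higher in muscle than in BAT in both strains, by 1.35 in NZO and 1.05 in B6, where it was not called with the mean of its probes (0.66, adjusted p = 0.0727). Bckdk was higher in muscle by 0.43 in B6 (adjusted p = 0.00516), and its difference of 0.06 in NZO was not called (adjusted p = 0.681).

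Against gWAT, muscle had 7 of 10 members called in NZO, 3 higher and 4 lower, where 70.7% of all genes were called, 37.1% higher and 33.6% lower. In B6 9 of 10 were, 3 higher and 6 lower, where 69.8% of all genes were, 36.1% higher and 33.7% lower. The kinase was higher in muscle by 1.70 ± 0.12 SE in NZO and 1.73 ± 0.12 in B6, and the 1-gene Ppm1k probe by 1.01 and 0.99. Bckdhb was lower by -2.19 in NZO and -1.43 in B6, and Bcat2 by -1.12 and -1.78. Bckdha was higher by 0.61 ± 0.13 SE in NZO and by 0.31 ± 0.13 in B6 (adjusted p = 0.0487). The B6 call was lost in 6 of 7 fits that left out 1 array, and quantile normalisation turned its value to -0.10, while on the median scale the NZO value was 0.15 (adjusted p = 0.482).

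Counts over all genes between tissues also depend on the centring. For BAT against gWAT they were 8625 higher and 5726 lower in NZO, and 4021 higher and 8647 lower on the median scale. In B6 they were 7619 higher and 5395 lower, and 4939 higher and 6620 lower on the median scale. For muscle against gWAT in NZO they were 8070 higher and 7310 lower, and 4590 higher and 9789 lower on the median scale.

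The order of the 6 groups by mean varied between members, and Dbt and Hibch had the same order. Bckdha, Hibch, Dbt, Ivd, Acadsb and the 1-gene Ppm1k probe had B6 BAT highest. For Hibch it did not overlap the next group, NZO BAT, while for the other 5 it overlapped the group that followed. Bckdhb was highest in NZO BAT and did not overlap the next group, B6 BAT. Bcat2 was highest in B6 gWAT, without overlap with NZO gWAT. Bckdk was highest in B6 muscle, without overlap with NZO muscle. Bcat1 had neighbouring groups that overlapped at every step of its order, from NZO gWAT at the top to B6 BAT at the bottom.

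The 17 genes of the later steps, listed from the textbook pathway beyond the 10 members, were set beside all genes. In gWAT 5 were lower and 1 higher in NZO, against 15.6% lower and 15.9% higher of all genes. In BAT 6 were lower and 1 higher, against 8.09% and 7.57%, and in muscle 4 were lower and 0 higher, against 6.02% and 4.69%. Their median differences were -0.38, -0.26 and -0.23, and those of all genes -0.0046, -0.0033 and -0.033. Pccb, the beta subunit of propionyl-CoA carboxylase, which takes over the product of the isoleucine and valine routes, had the widest gap. It averaged 1.19 ± 0.258 in NZO gWAT and 2.54 ± 0.209 in B6 gWAT (SD, n = 4 each), a difference of -1.34. In BAT the difference was -1.14 and in muscle -2.07, where it was 4.19-fold lower in NZO (adjusted p = 0.000559, 0.000282 and 5.91e-05). Pcca, its alpha subunit, was lower by -0.90, -0.59 and -0.55 in gWAT, BAT and muscle. Aldh6a1, a dehydrogenase of the valine route, was lower by -1.24, -0.47 and -0.84, and Mccc1, a carboxylase subunit of the leucine route, by -0.998, -0.34 and -0.64. Hadhb, a subunit of the mitochondrial fatty acid oxidation enzyme, was the gene called higher in gWAT, by 0.63.

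**Figure D4:**
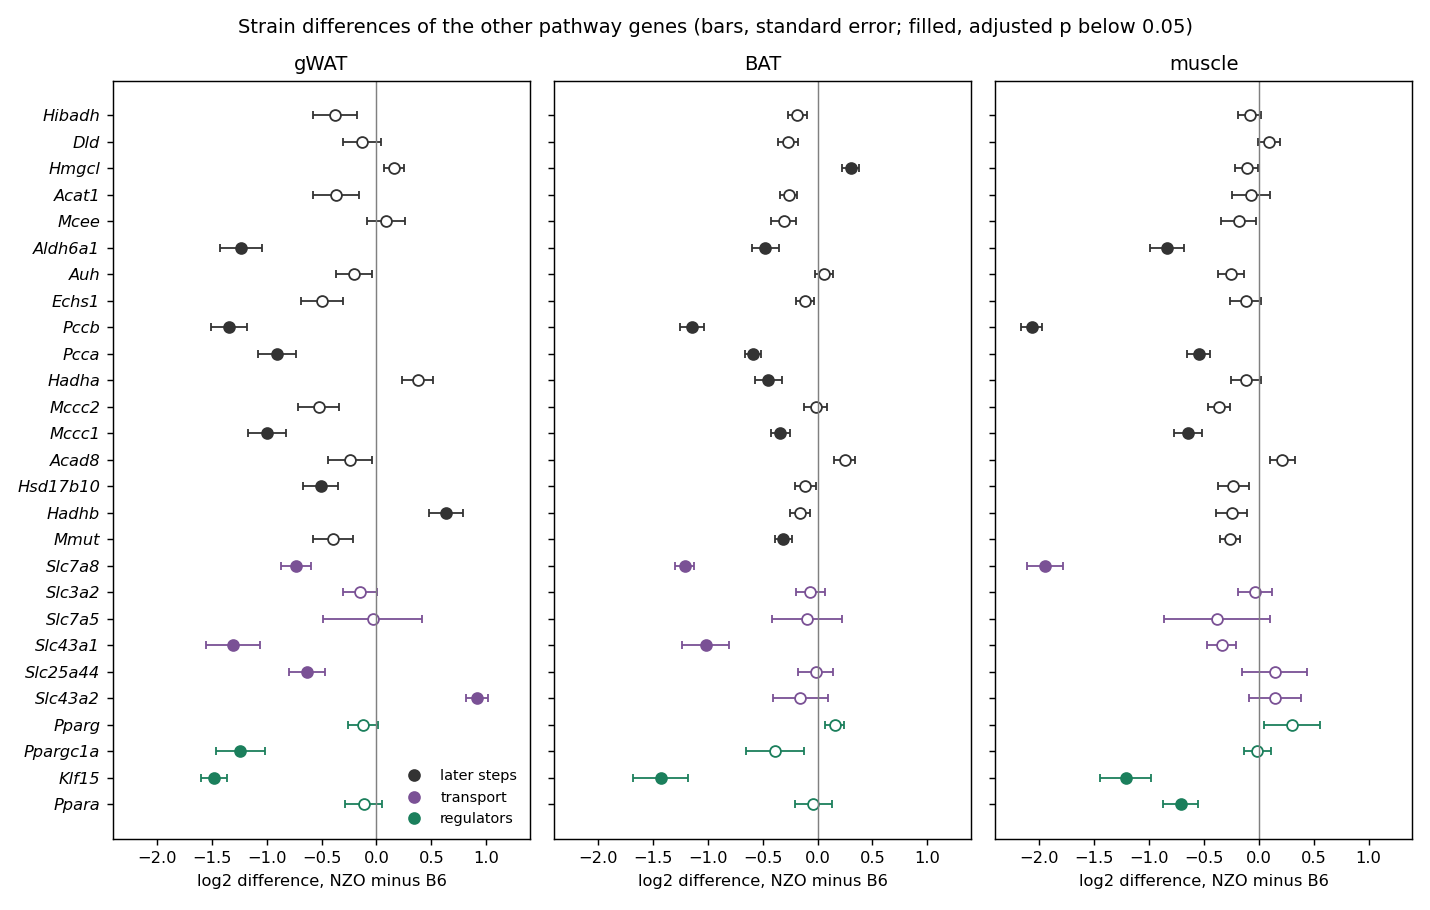
Log2 difference of NZO minus B6 on the horizontal axis for 17 genes of later steps, 6 transporter genes and 4 regulators in the 3 tissues, with bars of 1 standard error and filled points at a limma adjusted p under 0.05. Pccb lies left of 0 with filled points in all 3 tissues, at -1.34 in gWAT, -1.14 in BAT and -2.07 in muscle, and Klf15 at -1.48, -1.43 and -1.21.

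Of 6 amino acid transport genes, 3 were lower and 1 was higher in NZO gWAT, 2 were lower in NZO BAT and 1 in NZO muscle, where 31.6%, 15.7% and 10.7% of all genes were called. Slc7a8, a subunit of an L-type amino acid exchanger, was lower by -0.74 in gWAT, -1.21 in BAT and -1.95 in muscle, although only 1 of 4 NZO BAT arrays measured it well above background. Slc43a1, an L-type transporter, was lower by -1.30 in gWAT and -1.02 in BAT. The related Slc43a2 was higher in gWAT by 0.92. Slc25a44, the mitochondrial carrier for branched-chain amino acids, was lower in NZO gWAT by -0.63 (adjusted p = 0.0224), and its BAT difference of -0.02 was not called (adjusted p = 0.957).

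Of 4 regulators, 2 were called in gWAT, 1 in BAT and 2 in muscle, all lower in NZO, beside the same shares of all genes. Klf15 was called in every tissue. It encodes a transcription factor known to control amino acid breakdown in muscle and liver, and it was lower in NZO by -1.48 in gWAT, -1.43 in BAT and -1.21 in muscle (adjusted p = 5.99e-05, 0.00651 and 0.0193). Ppargc1a, a coactivator of mitochondrial genes, was lower by -1.24 in gWAT (adjusted p = 0.00447). Ppara, a nuclear receptor for fatty acids, was lower by -0.71 in muscle (adjusted p = 0.034). Pparg, the nuclear receptor of fat cell formation, was called in none of the 3 tissues.

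Promoters of the members were read for short motifs because several members moved together between the strains. RefSeq sequence on GRCm38.p6 held 12 promoters of 9 members, and Dbt had no entry. Each window is the 250 bases before a start site. The motifs were the CCAAT box, the KLF-type box CACCC, the GC box GGGCGG and the nuclear receptor half-site AAGGTCA, each searched on either strand, and none of these letter strings contains another. CCAAT was present in 5 of 12 member promoters, against 33.8% of 32851 promoters. CACCC was in 6 of 12 (52.0% of all), GGGCGG in 4 of 12 (32.7%) and AAGGTCA in 0 of 12 (4.08%). Copies per window were also counted. The Hibch promoter held 5 copies of GGGCGG, as 1.93% of all promoters hold at least that many. The Acadsb promoter and 1 Bckdhb start held 3 copies of GGGCGG each, as 8.47% hold 3 or more. The Ivd promoter held 4 copies of CCAAT, as 0.840% of all promoters hold at least that many. Bckdhb and Ppm1k held 2 copies of CCAAT each at 1 start site, as 10.1% hold 2 or more, and a second Bckdhb start held 0. Those 3 windows with several CCAAT copies are shown, with CCAAT or its reverse complement in capitals, since Ivd and Ppm1k were lower and Bckdhb was higher in NZO gWAT.
Ivd, chr2:118861744-118861993, plus strand: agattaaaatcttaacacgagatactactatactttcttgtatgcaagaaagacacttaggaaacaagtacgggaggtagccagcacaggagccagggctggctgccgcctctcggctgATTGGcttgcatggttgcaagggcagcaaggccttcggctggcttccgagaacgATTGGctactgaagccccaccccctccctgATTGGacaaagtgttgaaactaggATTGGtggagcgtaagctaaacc
Bckdhb, chr9:83924887-83925136, plus strand: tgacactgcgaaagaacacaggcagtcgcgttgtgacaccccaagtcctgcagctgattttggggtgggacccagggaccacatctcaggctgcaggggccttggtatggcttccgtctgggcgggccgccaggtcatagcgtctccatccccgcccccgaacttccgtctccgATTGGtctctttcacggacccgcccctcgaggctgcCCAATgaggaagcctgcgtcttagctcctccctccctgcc
Ppm1k, chr6:57535488-57535737, minus strand: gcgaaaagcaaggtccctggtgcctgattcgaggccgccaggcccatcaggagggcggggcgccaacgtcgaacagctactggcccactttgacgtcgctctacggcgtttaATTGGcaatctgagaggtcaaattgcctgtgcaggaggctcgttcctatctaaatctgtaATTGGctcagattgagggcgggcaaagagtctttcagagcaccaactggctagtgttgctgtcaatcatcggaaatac
The sequences are those of the reference, and a match is a description of letters in the window and not a site. CCAAT occurs in windows of genes that were lower and of a gene that was higher in NZO gWAT.

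Across the 23 arrays, which share tissue and strain, each member was set against 11642 other genes by Pearson's correlation of the log2 values. Hibch was most like Pcca (r = 0.994) and Acadsb most like Aldh6a1 (r = 0.966), both later steps of the same pathway. Bckdha was most like Eci1, an enzyme of fatty acid oxidation (r = 0.994). The remaining members were led by genes from elsewhere: Bckdk by Macrod1 (0.985), Bckdhb by Uhmk1 (0.984), Dbt by Hoxa5 (0.972), Bcat2 by Cdc42ep1 (0.950), Ppm1k by Rbfa (0.945), Bcat1 by Glis2 (0.934) and Ivd by Dus2 (0.926). Among the 100 genes most like each member, other genes of the pathway numbered 9 for Acadsb, 8 for Dbt, 7 each for Bckdha and Ivd and 5 for Hibch. They numbered 0 for Bcat1, Bcat2, Bckdhb, Bckdk and Ppm1k. These correlations mostly follow the tissues and are given as a description.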

How the data were processed

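The authors deposited scanner files of 24 single-colour arrays, with intensity per spot. Per the file headers they came from Agilent Feature Extraction 11.0.1.1, while the submitters' processing notes name version 9.1. The signal used was background-corrected by that software, per the file headers. From 59305 non-control spots, outlier spots were dropped and the remaining spots of 1 probe were averaged before log2 was taken. The log2 of each array's 75th percentile (134 to 360 intensity units) was then subtracted. That percentile was taken over all non-control spots, outliers included. Between 51.9% and 59.3% of the 55681 probes per array were well above background, and the number of arrays limits the precision. Symbols of 27656 probes were updated through RefSeq accessions and 28025 kept the files' name. A gene was read from its brightest probe and tested if well above background on every array of a group compared. Of all probes, 786 (1.41%) list several genes.

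Strains were compared within each tissue, and tissues and interactions in 1 fit of 23 arrays, by limma 3.58.1 in R 4.3.3 with Benjamini-Hochberg adjustment over all genes. The steps were tested on simulated data. Of 100 genes changed by 1 log2 unit between strains, 62% were recovered in gWAT, 57% in BAT and 38% in muscle. Of 100 changed by 2 log2 units, 82%, 88% and 82% were. A true 2-fold strain difference was thus missed most often in muscle. Alternatives changed the scaling, background correction, filter, probe choice, slide or replicate block and the arrays included. The authors' deposited value table holds the mean of the median spot intensity for 37877 probes, found by setting it against the scanner files, and served as an alternative. Coordinates are the files' mm9 positions, and exons and UTRs were not analysed here. The genes named are the 10 members, up to 3 called genes with the largest difference per further list and comparison, up to 3 called genes per marker list and the genes most like each member. Hadhb, Slc25a44 and genes not called in a comparison were named after their values were seen. Members and lists were chosen with earlier results of these data known.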

Additional observations from a re-analysis of the deposited data

Results flagged for a closer look

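In groups of 4 arrays, a single array stood far from the other 3 by Dixon's criterion for 2 of 60 groups tested, and chance alone gives about 1 in 20. Both were for Bckdha and both were B6 arrays. In gWAT, B6 replicate 011 was highest at 5.42. In muscle, B6 replicate 011 was lowest at 5.21, and this array was left out of all comparisons.

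For 3 members the strain difference itself differed between tissues by an interaction test in limma. For Ivd, 1 of 10 members called where 19.2% of all genes were, the difference in BAT minus that in gWAT was 0.86, and the call was lost with median centring. In muscle minus gWAT 2 of 10 members were called, where 20.6% of all genes were. For Bcat2 that value was 0.66, and the call was lost with median centring and in 8 of 15 fits that left out 1 array. For Bckdhb it was -0.76, lost in 2 of 15. No explanation of these was tested.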

How the results depend on the processing

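Most member counts below stand without the share of all genes called under the same setting, and that share changes with the setting too. They describe the settings and are no result about the members. In gWAT 6 members were called (4 to 6 with 1 array left out), 3 with arrays centred on the median. In BAT 3 were called (3 to 4), 1 with median centring, 1 with slide as a block and 0 with the replicate number as a block, which left 433 genes called over all. The replicate block gave 1 member for the interaction of muscle with gWAT and 1 for that of muscle with BAT. Deviations from the group means correlated at a median r of 0.11 between same-numbered samples of a strain (above 0.1 in 11 of 20 pairs) and of -0.014 between samples with other numbers (17 of 68). These correlations do not settle whether animals were shared. No label ties a number to an animal, so the numbers were not taken as pairs. The tissue and interaction tests treat all samples as independent. In BAT only numbers 009 and 011 occurred in both strains, so that block compared the strains on those numbers alone. Why calls were lost under the block was not tested further. In muscle 0 members were called (0 to 1), 1 with the mean of a gene's probes, 1 with the authors' value table, 1 without probes listing several genes (chosen after seeing the data), 2 with slide as a block and 2 in the fit of 23 arrays. Genes called over all in muscle were 1235 with median centring, 1377 with no filter on dim probes, 1084 with B6 replicate 011 kept and 991 to 1991 with 1 array left out. For the interaction of BAT with gWAT 1 member was called (1 to 2), 0 with median centring, 5 with quantile normalisation, 2 with the mean of probes and 3 with the authors' value table. For muscle with gWAT 2 were called (0 to 3), 1 with median centring, 5 with quantile normalisation, 1 with no filter and 1 with slide as a block. For muscle with BAT the genes called over all were 543 with median centring, 411 with slide as a block and 819 to 1552 with 1 array left out, and 0 to 1 members were called. Genes called over all for BAT with gWAT were 2064 higher and 2254 lower, and 730 and 2408 with median centring. For muscle with gWAT they were 2053 higher and 2659 lower, and 723 and 3380. Quantile normalisation turned the tissue differences of the 3-gene Ppm1k probe to -0.026 (BAT against gWAT) and -0.37 (muscle against gWAT) in NZO and to -0.14 and -0.61 in B6, and that of Bckdha for muscle against gWAT in B6 to -0.10. The cause of these changes was not tested. Of the values of single members under all alternatives, 2219 kept direction and side of the threshold, 75 lost the call, 60 gained one, 5 turned and 10 moved. The 1-gene Ppm1k probe kept its gWAT and muscle calls in every alternative run. Signal over background limits Bcat1, with 2 probes not well above background on any B6 BAT array.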
